A study of Mus musculus with 12 samples.

Results

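Endothelial cells line the capillaries that thread every pancreatic islet. The islet capillary bed is dense and fenestrated, so that glucose reaches β-cells and secreted insulin reaches the blood quickly, and its maintenance is known to depend on VEGF-A made by the β-cells. 10 transcripts known to mark blood vessel endothelium were followed here: the VEGF receptors Kdr and Flt1, the angiopoietin receptor Tek and its relative Tie1, the TGFβ co-receptor Eng, the junction proteins Pecam1 and Esam, the fenestral diaphragm protein Plvap, the secreted factor Egfl7 and the sialomucin Emcn. The 10 genes were chosen as known markers, at a time when earlier results of these data were known, and were matched by symbol among the 37991 rows of the count table. All 10 had enough counts to be tested.

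The measurements are bulk RNA-seq counts from islets of male C57BL/6 mice. Tg7 mice overexpress miR-7a2 in β-cells and become diabetic as their β-cells lose identity, and wild-type (Wt) littermates were the controls. Islets were taken at 2 and 12 weeks of age (2w and 12w), which gave 4 groups (Wt 2w, Tg7 2w, Wt 12w and Tg7 12w) of 3 libraries, each made from islets pooled over several animals, so that p-values measure the spread between pools. No cells were sorted, so that endothelium is a small part of the RNA, and in such bulk libraries fewer endothelial cells and less RNA per endothelial cell cannot be told apart.

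Each library held between 11610697 and 17515758 counts. The 3 Wt 12w libraries differed most from one another, and replicate 4 stood apart, with 14.8% of its counts on the insulin genes against 27.0% and 30.0% in the other two. Tg7 2w replicate 1 stood apart in leukocyte and lymphocyte genes, which summed to 46.1 CPM there and to 2.98 to 11.6 CPM in the other 11 libraries. In the Tg7 libraries insulin genes took 1.84% to 8.24% of counts, and levels are given as CPM, the count per 1000000 counts of the TMM-scaled library. The hairpin row of the transgene's locus, Mir7-2, held 0 to 13 counts per library. These libraries were not made to capture mature miRNAs, so this row does not check the genotype.

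The islet preparations held endothelial RNA at both ages and in both genotypes. The 10 markers summed to 1024 to 1250 CPM in Wt 2w, 1177 to 1237 CPM in Tg7 2w, 462 to 558 CPM in Wt 12w and 932 to 966 CPM in Tg7 12w. None was at 0 in any library, and the lowest count behind any value was 65 (Tek, Wt 12w replicate 1). Per length, as CPM per kilobase of exon (RPKM), Plvap was the most abundant marker in every group, at 80.5 ± 13.9 in Wt 2w, 102.5 ± 3.42 in Tg7 2w, 49.2 ± 3.38 in Wt 12w and 106 ± 7.04 in Tg7 12w (mean ± SD, n = 3). Eng came next in all 4 groups and Tek last, at 1.97 ± 0.499 RPKM in Wt 12w and 5.52 ± 1.08 RPKM in Tg7 2w at its extremes. Plvap and Eng did not overlap with their next lower neighbour in any group. Pecam1 and Kdr, which followed, overlapped in both Wt groups but not in the Tg7 groups. The order of Esam, Emcn, Flt1 and Egfl7 below them changed from group to group, with overlap between most neighbours.

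**Figure D1:**
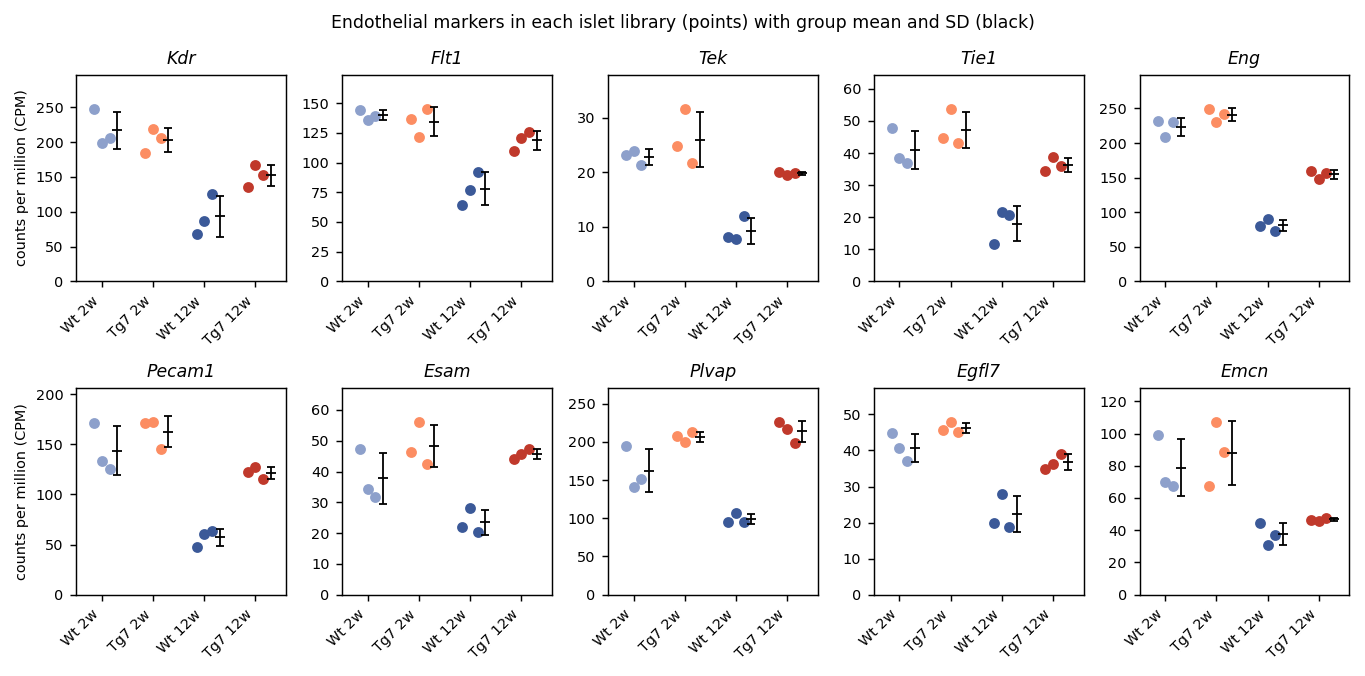
Level in CPM (y axis, from 0) of the 10 endothelial markers in each library, by group (x axis); each point is 1 library, and the black bar is the group's mean with its SD (n = 3). In all 10 panels the 3 Wt 12w libraries lie below both the Tg7 12w and the Wt 2w libraries.

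At 12w, the endothelial markers were higher in Tg7 than in Wt islets. Of the 10 markers, 9 rose and Emcn did not pass the test (edgeR quasi-likelihood test, Benjamini-Hochberg over 15961 genes). The median log2 fold change of the 10 was 0.95, where that of all tested genes was -0.01. Of all tested genes, 23.6% were called in either direction and 12.5% were called higher in Tg7. Every Tg7 library lay above every Wt library for 10 of 10 markers, a separation seen for 20.7% of all tested genes. The count of markers called was 8 to 10 under every alternative scaling, filter, test and left-out library tried.

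At 2w, the same comparison called 0 of 10 markers, beside 10.6% of all tested genes called in either direction. The median log2 fold change was 0.18, with 8 markers higher and 2 lower in Tg7. 1 marker, Plvap, had an unadjusted p under 0.05, and DESeq2 also called 0. Only Plvap and Egfl7 had all 3 Tg7 libraries above all 3 Wt libraries, as did 17.8% of tested genes. Plvap was the one marker called at 2w under an alternative, with a log2 fold change of 0.49 without Wt 2w replicate 1, its highest Wt library.

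The effect of the genotype was larger at 12w than at 2w for 10 of 10 markers, by a median of 0.78 on the log2 scale. The difference itself passed the test for 2, Eng and Pecam1, beside 1.18% of all tested genes called in either direction and 0.871% called positive. 9 of the 10 had an unadjusted p under 0.05 for this difference, all but Emcn. The count of 2 called rested on single libraries. It was 0 after the removal of any 1 Tg7 12w library or of replicate 1 or 3 of Wt 2w. It was 6 without Wt 12w replicate 4, a fit that called 579 of 16460 genes, against 188 of 15961 in the main fit. DESeq2 called 4 markers, and 566 of 23954 genes over all.

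In Wt islets, 10 of 10 markers fell from 2w to 12w, by a median log2 fold change of -1.13, beside 15.8% of all tested genes called in either direction and 7.91% called lower at 12w. The 3 Wt 12w libraries lay below all 3 Wt 2w libraries for all 10, as for 15.6% of tested genes. In Tg7 islets, 2 of 10 markers fell over the same interval, Eng and Emcn, beside 13.0% of all tested genes called in either direction and 6.01% called lower. Their median was -0.39, and 7 of 10 had no overlap between ages, as for 19.2% of tested genes. The Tg7 age comparison called 6 markers when fitted on Tg7 libraries alone and 4 without Wt 12w replicate 4. Over all genes it called 3441 of 15524 and 3329 of 16460 in these fits, against 2079 of 15961 in the main fit. The comparisons share groups with each other: Wt 12w libraries enter both the genotype comparison at 12w and the age comparison in Wt.

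**Figure D2:**
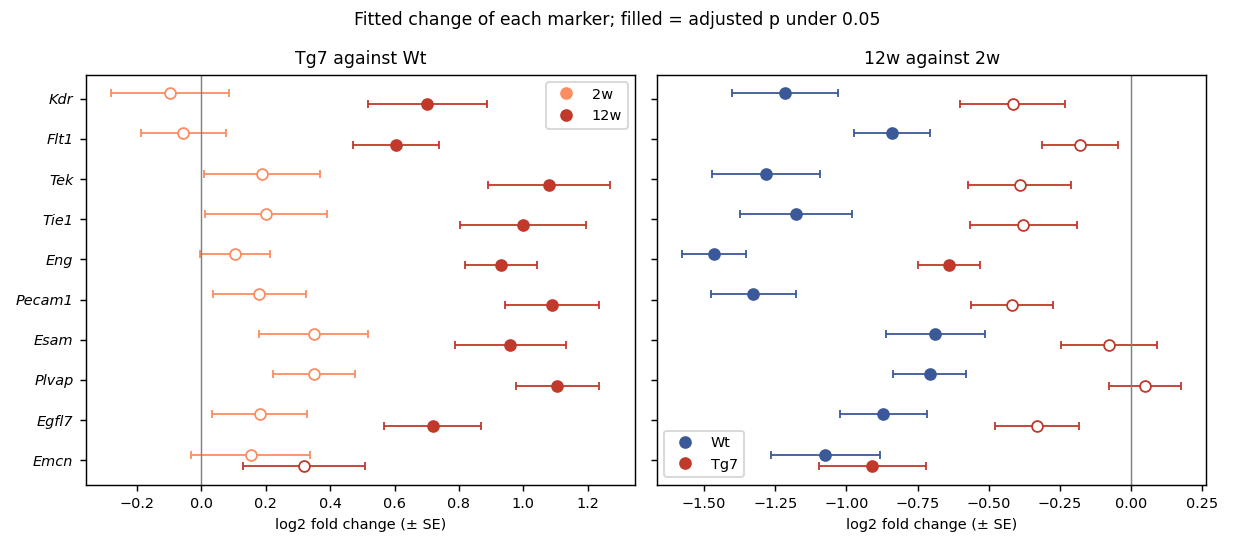
Fitted log2 fold change with its SE (x axis) of each marker (y axis) between Tg7 and Wt at each age (left) and between 12w and 2w in each genotype (right); filled points passed an adjusted p of 0.05. At 12w all markers except Emcn are filled and lie between 0.60 and 1.11, and in Wt all 10 are filled and lie below 0.

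The VEGF receptors Kdr and Flt1 both bind VEGF-A. Kdr (VEGFR2, ENSMUSG00000062960, chr5:76328852-76374483 of mm9) is the main signalling receptor of VEGF-A. Its level was 247, 198 and 206 CPM in the 3 Wt 2w libraries and 184, 218 and 206 CPM in Tg7 2w. The 2w groups overlapped. At 12w it was 67.7, 87.3 and 125 CPM in Wt (replicates 1, 2 and 4) and 136, 167 and 153 CPM in Tg7. The groups did not overlap, but Wt replicate 4 came close to the lowest Tg7 library. Kdr was 1.63-fold higher in Tg7 at 12w (log2 fold change 0.70 ± 0.19 SE, adjusted p = 0.0144), against -0.10 ± 0.18 at 2w (adjusted p = 0.783). This call at 12w was lost when the 12w libraries were fitted alone (0.68) and without Tg7 12w replicate 2 (0.63).

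Flt1 (VEGFR1, ENSMUSG00000029648, chr5:148373180-148537587 of mm9) binds VEGF-A and placental growth factor with high affinity and also acts as a decoy. It was steady at 2w, at 144, 136 and 140 CPM in Wt and 137, 121 and 145 CPM in Tg7. At 12w it was 64.4, 77.0 and 92.4 CPM in Wt and 110, 121 and 126 CPM in Tg7. Again no Tg7 library fell among the Wt libraries. The log2 fold change at 12w was 0.60 ± 0.13 (adjusted p = 0.00527), the smallest of the 9 that passed. The ratio of Kdr to Flt1 counts was 1.35 to 1.80 over the 6 libraries of 2w and 1.05 to 1.38 over the 6 of 12w, overlapping between genotypes at each age.

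Tek (Tie2, ENSMUSG00000006386, chr4:94405980-94541667 of mm9), the receptor of the angiopoietins, keeps vessels quiescent. It was measured at 23.2, 24.0 and 21.3 CPM in Wt 2w and at 24.8, 31.6 and 21.7 CPM in Tg7 2w. In Wt 12w it was 8.19, 7.70 and 12.0 CPM, and in Tg7 12w it was 20.02, 19.6 and 19.9 CPM. The Tg7 12w libraries hardly differed from one another and lay above all Wt 12w libraries. The difference was 2.12-fold (log2 fold change 1.08 ± 0.19, adjusted p = 0.00105). Tie1 (ENSMUSG00000033191, chr4:118143796-118162666 of mm9), which has no well-established ligand of its own and modulates Tek, went from 11.7, 21.6 and 20.5 CPM in Wt 12w to 34.3, 38.6 and 35.9 CPM in Tg7 12w. Wt 12w replicate 1 was the low library, and both groups stayed apart (log2 fold change 0.9998 ± 0.20, adjusted p = 0.00234). At 2w neither passed the test (adjusted p = 0.548 and 0.541). The ratio of Tek to Tie1 counts overlapped among all 4 groups, with medians of 0.553 to 0.584.

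Eng (endoglin, ENSMUSG00000026814, chr2:32502115-32538189 of mm9) is a co-receptor for BMP9, BMP10 and TGFβ. Its levels were 231, 209 and 231 CPM in Wt 2w and 249, 231 and 242 CPM in Tg7 2w. They were 80.5, 89.5 and 73.1 CPM in Wt 12w and 159, 148 and 157 CPM in Tg7 12w. Each group was narrow, and all Tg7 12w libraries lay above all Wt 12w libraries and below all libraries of 2w. Eng had the steepest fall with age in Wt, with a log2 fold change of -1.46 ± 0.11 (adjusted p = 1.81e-06), and also fell in Tg7, by 0.64 ± 0.11 on the log2 scale (adjusted p = 0.00178). The genotype effect was 0.93 ± 0.11 at 12w (adjusted p = 5.35e-05) and 0.11 ± 0.11 at 2w, and the difference of 0.83 ± 0.16 passed the test (adjusted p = 0.0198). Eng shares exon bases with Ak1 on its own strand and with Fpgs on the other, and whether strand was used in counting is not stated, so its counts are uncertain where these genes overlap. The call for the difference was lost after the same removals.

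Pecam1 (CD31, ENSMUSG00000020717, chr11:106515531-106611942 of mm9) joins endothelial cells at their contacts. It was counted at 171, 134 and 126 CPM in Wt 2w and at 171, 172 and 145 CPM in Tg7 2w, with overlap. At 12w it stood at 47.4, 60.3 and 63.5 CPM in Wt and at 123, 127 and 115 CPM in Tg7. The lowest Tg7 12w library was well above the highest Wt 12w library, and the difference was 2.13-fold (log2 fold change 1.09 ± 0.15, adjusted p = 1.48e-04). The effect exceeded that at 2w by 0.91 ± 0.20 (adjusted p = 0.0496), a call that was lost when any 1 library other than Wt 12w replicate 4 was left out. Esam (ENSMUSG00000001946, chr9:37335663-37345904 of mm9), an adhesion molecule of endothelial tight junctions, was 22.1, 28.0 and 20.3 CPM in Wt 12w and 44.0, 45.7 and 47.4 CPM in Tg7 12w. The groups did not overlap, and the Wt 2w libraries lay at 31.8 to 47.3 CPM. The log2 fold change at 12w was 0.96 ± 0.17 (adjusted p = 0.00135). In Wt it fell with age by 0.69 ± 0.17 on the log2 scale (adjusted p = 0.0159), the smallest fall of the 10, a call that did not hold in a fit of the Wt libraries alone (-0.72), or when either Wt 12w or Wt 2w replicate 1 was left out (-0.64 and -0.50).

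Plvap (ENSMUSG00000034845, chr8:74021653-74035668 of mm9) builds the diaphragms that span endothelial fenestrae, the openings typical of endocrine capillaries. Its levels were 194, 141 and 151 CPM in Wt 2w and 207, 199 and 213 CPM in Tg7 2w. At 12w they were 95.3, 107 and 95.3 CPM in Wt and 225, 217 and 198 CPM in Tg7. Plvap had its lowest group in Wt 12w, and its Tg7 libraries overlapped between the ages. It showed the largest fold of the 10 markers at 12w, 2.15-fold (log2 fold change 1.11 ± 0.13, adjusted p = 4.73e-05). At 2w the log2 fold change was 0.35 ± 0.13 (adjusted p = 0.0949). From 2w to 12w it fell by 0.71 ± 0.13 on the log2 scale in Wt (adjusted p = 0.00238), and the value in Tg7 was 0.05 ± 0.13 (adjusted p = 0.842).

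Egfl7 (ENSMUSG00000026921, chr2:26435534-26448640 of mm9) is a matrix-bound factor made by endothelium, and its gene also hosts Mir126. In Wt 12w it was 19.9, 28.0 and 18.9 CPM and in Tg7 12w it was 34.7, 36.3 and 39.1 CPM. No libraries crossed between these groups, and the log2 fold change was 0.72 ± 0.15 (adjusted p = 0.00375). The 2w libraries lay at 37.0 to 44.7 CPM in Wt and 45.2 to 47.8 CPM in Tg7. Its exons share bases with Agpat2 on the other strand and with Gm20532 on its own, which makes its counts uncertain in the same way as those of Eng.

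Emcn (ENSMUSG00000054690, chr3:137004031-137095149 of mm9), a surface sialomucin of capillary and venous endothelium, was the exception. It was 99.2, 69.7 and 67.5 CPM in Wt 2w and 67.3, 107 and 88.6 CPM in Tg7 2w. At 12w it was 44.4, 31.0 and 37.3 CPM in Wt and 46.6, 46.0 and 47.4 CPM in Tg7. The Tg7 12w libraries lay just above the highest Wt library. The log2 fold change was 0.32 ± 0.19 at 12w (adjusted p = 0.257). With age Emcn fell in both genotypes, by 1.07 ± 0.19 in Wt (adjusted p = 0.00202) and by 0.91 ± 0.19 in Tg7 (adjusted p = 0.00587) on the log2 scale. The ratio of Plvap to Emcn counts, a pair chosen after the values were seen, was 4.18 to 4.84 in Tg7 12w and 1.86 to 3.46 over the other 9 libraries.

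The transgene product and the markers can be set side by side in sequence. The mature miR-7a-5p (from RefSeq, GRCm38.p6, chr7:78888295-78888317, plus strand) is printed with its seed, bases 2 to 8, in capitals, because this heptamer sets which 3′ UTRs can pair with it.
mmu-miR-7a-5p: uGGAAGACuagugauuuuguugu
The reverse complement of the seed occurred in the longest annotated 3′ UTR of 2 of the 10 markers, Pecam1 and Flt1, 1 time each, and in those of 11.2% of 20007 genes with an annotated 3′ UTR. Both sites are given from the mm9 annotation, minus strand, 5′ to 3′ in the transcript, with the 7 matching bases in capitals.
Pecam1 (chr11:106516217-106516237): ctgacctGTCTTCCttgtgtt
Flt1 (chr5:148449075-148449095): aggcaatGTCTTCCtccaggg
Both transcripts were called higher in Tg7 at 12w, by the values above, and neither passed the test at 2w. The transgene acts in β-cells and these counts come from unsorted islets, so their direction cannot show whether miR-7 acts on either transcript. This was not tested. A match of letters does not show that a site is used.

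Those markers that had a promoter window were also compared by promoter, whatever their result. RefSeq windows of 300 bases (250 before and 50 after the start site, GRCm38.p6) were at hand for 7 of the 10: Kdr, Flt1, Tek, Tie1, Eng, Egfl7 (3 windows) and Emcn. ETS factors such as Erg, Fli1 and Ets1 regulate much of endothelial transcription and bind around the core GGAA, which on either strand was in all 7 but also in 96.0% of 32851 windows. The longer AGGAAG, which contains that core, was found on either strand for 5 of the 7 (Flt1, Tie1, Eng, Egfl7 and Emcn) and in 35.4% of all windows. The letters AGATAA, to which factors such as Gata2 bind, were found for Tek alone and in 11.2% of windows, and AACAAT, to which Sox factors bind, for Tek and Emcn and in 10.7%. The window of Eng, which passed the test in 4 of 5 comparisons, and that of Emcn, which did not pass at 12w, are shown with AGGAAG or its reverse complement in capitals, followed by that of Tek, which holds none.
Eng (chr2:32646345-32646644, plus strand): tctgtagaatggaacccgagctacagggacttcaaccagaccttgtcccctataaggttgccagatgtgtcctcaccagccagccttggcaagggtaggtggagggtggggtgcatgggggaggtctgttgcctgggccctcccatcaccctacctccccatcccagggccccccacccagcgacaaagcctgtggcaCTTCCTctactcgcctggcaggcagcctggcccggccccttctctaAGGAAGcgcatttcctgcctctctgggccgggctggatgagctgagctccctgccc
Emcn (chr3:137340828-137341127, plus strand): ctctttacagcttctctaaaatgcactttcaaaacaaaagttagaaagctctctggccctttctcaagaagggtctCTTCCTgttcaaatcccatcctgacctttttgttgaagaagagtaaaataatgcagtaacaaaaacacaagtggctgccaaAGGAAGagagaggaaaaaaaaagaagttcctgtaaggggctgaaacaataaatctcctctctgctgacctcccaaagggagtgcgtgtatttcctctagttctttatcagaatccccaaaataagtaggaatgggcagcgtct
Tek (chr4:94739039-94739338, plus strand): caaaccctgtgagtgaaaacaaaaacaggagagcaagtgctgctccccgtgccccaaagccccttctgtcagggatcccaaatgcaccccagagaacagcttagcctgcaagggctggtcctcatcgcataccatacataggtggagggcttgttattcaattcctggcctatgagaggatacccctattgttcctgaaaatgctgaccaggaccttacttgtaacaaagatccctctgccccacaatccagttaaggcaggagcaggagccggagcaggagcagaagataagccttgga
A match in such a window is a description and not a binding site.

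Other endothelial genes were counted from lists of known function. Of 21 further pan-endothelial genes, 9 rose and 0 fell in Tg7 at 12w, where 12.5% of all tested genes were called higher. With 1 library left out, 7 to 11 were called. All 21 were higher, with a median log2 fold change of 0.76. Cdh5 (VE-cadherin, the main adherens junction protein of endothelium) went from 54.3 ± 11.02 CPM in Wt 12w to 92.4 ± 8.86 CPM in Tg7 12w (mean ± SD, n = 3, log2 fold change 0.76 ± 0.17, adjusted p = 0.00627). The transcription factor Sox18 had the largest change of the list (1.51 ± 0.16, adjusted p = 1.61e-05) and was its one gene with a difference between ages (1.09 ± 0.21, adjusted p = 0.0246), followed at 12w by the tight junction protein Cldn5 (1.31 ± 0.45, adjusted p = 0.0474). At 2w edgeR and DESeq2 called 0 of the 21, with an unadjusted p under 0.05 for 2 that were higher and 1 that was lower. From 2w to 12w, 15 of the 21 fell in Wt, beside 7.91% of all tested genes called lower. The steepest falls were in Cd93 (-2.51 ± 0.19, adjusted p = 1.30e-06) and the arterial factor Sox17 (-2.36 ± 0.22, adjusted p = 1.64e-05). In Tg7 9 fell, beside 6.01% of all tested genes called lower. The largest falls there were in Myct1 (-1.68 ± 0.23, adjusted p = 3.53e-04) and Cd93 (-1.65 ± 0.18, adjusted p = 5.68e-05). In Tg7 1 also rose, Gpihbp1, the capillary anchor of lipoprotein lipase (1.42 ± 0.41, adjusted p = 0.0339).

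Markers were also set against the summed counts of these 21 genes, as a log2 ratio in each library. At 12w the ratio of Plvap (-1.54 to -1.26 in Wt, -1.15 to -0.91 in Tg7) and of Pecam1 (-2.26 to -2.13 in Wt, -1.92 to -1.79 in Tg7) was higher in Tg7 without overlap. That of Emcn (-3.11 to -2.36 in Wt, -3.31 to -3.19 in Tg7) was lower without overlap. The other 7 overlapped at 12w, among them Tek and Tie1, whose mean ratios differed between genotypes by 0.34 and 0.29, against 0.33 for both Plvap and Pecam1. At 2w the ratio was higher in Tg7 without overlap for Plvap (by 0.36), Esam (0.36), Tie1 (0.20) and Pecam1 (0.18). The share of all genes whose ratio separates the genotypes in this way was not computed. By CPM, all Tg7 libraries lay above all Wt libraries for 17.8% of tested genes at 2w, and below for 18.1%. At 12w these shares were 20.7% and 16.3%. The ratios are descriptions and were not tested.

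Among the ligands and co-receptors of Kdr and Flt1, Pgf, the placental growth factor that binds Flt1, was called in both genotype comparisons. It rose in Tg7 at 2w, from 16.7 ± 1.17 to 57.5 ± 4.03 CPM (n = 3, log2 fold change 1.79 ± 0.14, adjusted p = 5.56e-06), and at 12w, from 11.4 ± 1.52 to 60.5 ± 6.23 CPM (2.40 ± 0.14, adjusted p = 1.55e-07). Vegfa, the ligand of both receptors, was more abundant, at 454 ± 131 CPM in Wt 12w and 321 ± 15.1 CPM in Tg7 12w. It did not pass the test at 2w (-0.50 ± 0.19, adjusted p = 0.114) or at 12w (-0.50 ± 0.19, adjusted p = 0.0790). Its unadjusted p was under 0.05 at both ages, and that of Vegfb, also lower in Tg7, was at 12w. DESeq2 called 1 of the 8 genes lower at 12w. With a library left out edgeR also called 1 lower at 12w, without Tg7 2w replicate 1 or Wt 12w replicate 1 or 4. At 2w it called 1 lower without Wt 12w replicate 1. Vegfc, a ligand of the VEGF receptor Flt4, rose at 2w (1.26 ± 0.28, adjusted p = 0.0104), and the co-receptor Nrp2 rose at 12w (0.64 ± 0.21, adjusted p = 0.0386). With age in Wt 4 of the 8 genes fell, Nrp2 (-1.66 ± 0.21), Nrp1 (-1.02 ± 0.20), Flt4 (-0.69 ± 0.17) and Pgf (-0.54 ± 0.14), and in Tg7 Nrp2 (-1.02 ± 0.20) and Nrp1 (-0.74 ± 0.20) fell. Pgf and Nrp2 made a count of 2 at 12w, which became 1 on leaving out any 1 library of Tg7 12w or of Wt 2w, Tg7 2w replicate 2 or Wt 12w replicate 2. The count of 2 at 2w became 1 on leaving out replicate 1 of Wt 2w. For the difference between ages edgeR and DESeq2 called 0 of the 8, and 2 had an unadjusted p under 0.05.

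Of the partners of Tek, Angpt2, the context-dependent antagonist made by endothelium itself, fell from 2w to 12w in Wt (-1.15 ± 0.20, adjusted p = 0.00168) and in Tg7 (-1.22 ± 0.20, adjusted p = 0.00124). Between genotypes Angpt2 did not pass at 2w (-0.48 ± 0.19, adjusted p = 0.126) or at 12w (-0.55 ± 0.20, adjusted p = 0.0620). Its unadjusted p was under 0.05 at both ages, and DESeq2 called 1 of the 4 genes tested lower at 12w. Angpt1, the activating ligand, averaged 0.939 ± 0.129 CPM in its highest group, Tg7 12w, and passed no test. Ptprb, the phosphatase that restrains Tek, fell with age in Wt (-1.32 ± 0.14, adjusted p = 4.21e-05) and Tg7 (-0.73 ± 0.14, adjusted p = 0.00312). Svep1, a large extracellular matrix protein, rose in Tg7 at 12w (2.66 ± 0.64, adjusted p = 0.00902). It was scarce, at 0.257 ± 0.267 CPM in Wt 12w (11 counts in all) and 1.88 ± 0.581 CPM in Tg7 12w. Of the 4 genes tested edgeR and DESeq2 called 0 at 2w, and 3 had an unadjusted p under 0.05.

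Of the partners of Eng, 5 of 6 tested genes rose at 12w, and 3 did on leaving out Tg7 12w replicate 2. Acvrl1 (ALK1), the type I receptor that works with endoglin, was one of them (0.78 ± 0.15, adjusted p = 0.00215). The inhibitory Smad6 (0.88 ± 0.18, adjusted p = 0.00332) and Id3 (0.81 ± 0.14, adjusted p = 0.00105), both known targets of BMP signalling, had the largest changes. At 2w edgeR and DESeq2 called 0 of the 6, and 3 had an unadjusted p under 0.05. With age in Wt 5 of the 6 fell, steepest in Tgfbr2 (-1.30 ± 0.21, adjusted p = 8.44e-04) and Id3 (-0.99 ± 0.14, adjusted p = 4.51e-04), and in Tg7 the same pair fell (-0.85 ± 0.20 and -0.53 ± 0.14).

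Among 11 endothelial surface and junction genes, 8 rose at 12w, where 12.5% of all tested genes were called higher. The largest changes were in Cldn5 and the sialomucin Cd34 (1.15 ± 0.13, adjusted p = 3.87e-05). Of the 8, Cdh5, Cldn5, Cd93 and Robo4 are also among the further pan-endothelial genes above, so their calls are counted in both lists. Jam3 (0.86 ± 0.14, adjusted p = 0.00149) and Cd34 (0.44 ± 0.13, adjusted p = 0.0408) rose at 2w, a count of 2 that became 1 on leaving out any 1 Tg7 library of either age, or replicate 2 or 3 of Wt 2w. On leaving out Tg7 2w replicate 1 it was Cd34 that lost its call (adjusted p = 0.0766). The anti-adhesive sialomucin Podxl was the one gene with a difference between ages (0.87 ± 0.19, adjusted p = 0.0412). With age 6 of the 11 fell in Wt, led by Cd93 and Cdh5 (-1.63 ± 0.18, adjusted p = 5.18e-05), and in Tg7 Jam2 rose (1.56 ± 0.20, adjusted p = 2.84e-04) while 4 fell, led by Cd93 and Mcam (-1.03 ± 0.19, adjusted p = 0.00284).

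Of 13 tested transcription factors of endothelium, 3 rose at 12w, Sox18, Tal1 (1.23 ± 0.37, adjusted p = 0.0266) and Ets1 (1.17 ± 0.19, adjusted p = 4.97e-04), where 12.5% of all tested genes were called higher. Sox18 is also among the 21 genes above. The count was 2 to 4 with 1 library left out. Erg, an ETS factor of mature endothelium, was 8.88 ± 3.39 CPM in Wt 12w and 14.2 ± 0.584 CPM in Tg7 12w and did not pass (0.65 ± 0.23, adjusted p = 0.0544). Klf2, which responds to blood flow, rose at 2w (1.03 ± 0.29, adjusted p = 0.0361), a call lost on leaving out Tg7 2w replicate 1 (0.79 ± 0.30, adjusted p = 0.120) or replicate 3, any 1 Tg7 12w library or Wt 2w replicate 3. With age 8 fell in Wt, led by Sox17 and Mecom (-1.73 ± 0.31, adjusted p = 0.00216), and 5 in Tg7, led by Mecom (-1.81 ± 0.30, adjusted p = 0.00133) and Klf2 (-1.77 ± 0.29, adjusted p = 0.00142).

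Genes of arteries and of veins were both called at 12w. Of 8 arterial genes 6 rose, the largest changes being in Sema3g (1.97 ± 0.30, adjusted p = 3.55e-04), from 4.24 ± 1.24 to 16.9 ± 1.47 CPM, and in the connexin Gja4 (1.35 ± 0.29, adjusted p = 0.00409). At 2w edgeR and DESeq2 called 0 of the 8, with 1 at an unadjusted p under 0.05. With age 6 fell in Wt, led by Hey1 (-2.26 ± 0.26, adjusted p = 7.29e-05) and Gja4 (-1.62 ± 0.29, adjusted p = 0.00193), and in Tg7 Hey1 (-1.17 ± 0.24, adjusted p = 0.00510) and Efnb2 (-1.14 ± 0.14, adjusted p = 1.96e-04) fell. Of 5 venous genes 4 rose at 12w, Selp and Ackr1 among them, and Selp rose at 2w. At 12w 2 were called on leaving out replicate 1 of either genotype or replicate 4 of Wt. At 2w 0 were called on leaving out Tg7 2w replicate 1, replicate 2 or 3 of Wt 2w or any 1 Tg7 12w library. Ephb4, the receptor of ephrin-B2, rose by 1.25 ± 0.17 on the log2 scale (adjusted p = 1.76e-04), and its effect differed between ages (1.09 ± 0.24, adjusted p = 0.0422). It also fell with age in Wt (-1.57 ± 0.17, adjusted p = 5.81e-05). Nr2f2, a regulator of venous identity, rose too (0.73 ± 0.25, adjusted p = 0.0455). Ackr1 had 0 counts in the 3 Wt 12w libraries and averaged 1.65 ± 1.01 CPM in Tg7 12w.

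The leukocyte adhesion molecules of activated endothelium were higher in Tg7. All 4 genes of the list rose at 12w, with any 1 library left out, where 12.5% of all tested genes were called higher. At 2w all 4 also rose, but in the fit without Tg7 2w replicate 1, the library with the highest leukocyte gene counts, only Icam1 did (1.06 ± 0.27, adjusted p = 0.0262). Sele was then 1.79 ± 0.58 (adjusted p = 0.0663), Selp 2.12 ± 0.80 (adjusted p = 0.111) and Vcam1 0.85 ± 0.39 (adjusted p = 0.198). The 2w count was also 1 without Wt 2w replicate 2 or 3 and 2 without Wt 2w replicate 1 or any 1 Tg7 12w library. In Tg7 2w replicates 1, 2 and 3 Vcam1 was 20.97, 5.91 and 4.02 CPM, against 1.70 to 3.92 CPM in Wt 2w. Sele, the endothelial selectin, rose from 1.32 ± 0.499 to 6.29 ± 3.08 CPM at 2w (2.26 ± 0.57, adjusted p = 0.0222) and from 0.337 ± 0.293 to 6.72 ± 3.89 CPM at 12w (4.12 ± 0.68, adjusted p = 6.84e-04). Selp, which platelets also carry, rose at 2w (2.89 ± 0.81, adjusted p = 0.0361) and at 12w (4.06 ± 0.83, adjusted p = 0.00303). Vcam1 (1.90 ± 0.53, adjusted p = 0.0366 at 2w and 2.85 ± 0.61, adjusted p = 0.00403 at 12w) and Icam1 (1.37 ± 0.28, adjusted p = 0.00738 and 2.00 ± 0.29, adjusted p = 2.77e-04) can be made by other cells as well. Summed levels of the 4 were low and the Tg7 libraries spread widely, at 26.9 to 69.7 CPM at 2w and 40.7 to 69.9 CPM at 12w, against 10.1 to 17.1 and 7.13 to 11.9 CPM in Wt. DESeq2 called 3 of the 4 at 2w. For the difference between ages edgeR and DESeq2 called 0 of the 4, and 0 had an unadjusted p under 0.05.

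**Figure D3:**
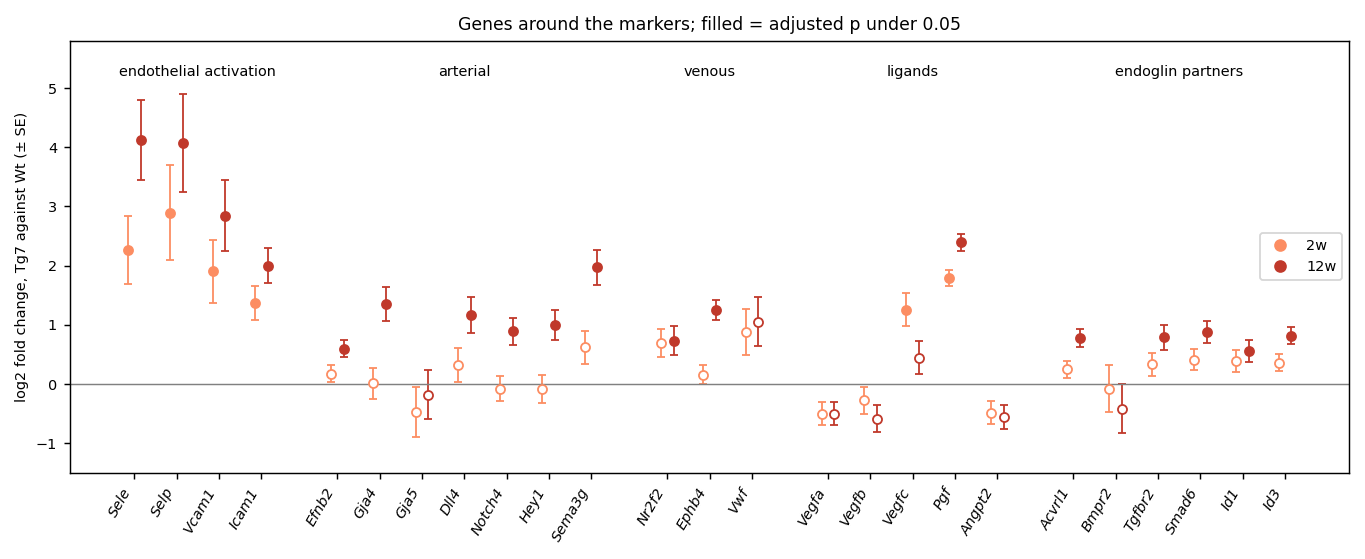
Fitted log2 fold change with its SE between Tg7 and Wt at 2w and 12w for genes around the markers, grouped by role; filled points passed an adjusted p of 0.05, and the scarce genes Bmx and Ackr1 are not drawn. The 4 activation genes and Pgf are filled at both ages with all libraries in the fit, while 6 arterial genes and 5 partners of Eng are filled at 12w and none of either at 2w.

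The lymphatic list did not move one way. Lyve1, made by lymphatic endothelium and also by some macrophages, fell in Tg7 at 2w (-1.40 ± 0.37, adjusted p = 0.0301) and at 12w (-1.47 ± 0.39, adjusted p = 0.0152). Pdpn, which mesothelium and fibroblasts also make, rose at 2w (2.30 ± 0.68, adjusted p = 0.0455) and 12w (3.61 ± 0.91, adjusted p = 0.0113). It was 15.5 CPM in Tg7 2w replicate 1, 3.18 and 2.28 CPM in the other two and 0.890 to 1.84 CPM in Wt 2w, and its 2w call was lost without replicate 1 (0.94 ± 0.56, adjusted p = 0.325). On leaving out 1 other library, the list held 1 or 2 higher and 0 or 1 lower calls at 2w, and 1 higher and 0 or 1 lower at 12w. Reln rose at 2w (2.27 ± 0.46, adjusted p = 0.00680) and fell with age in Tg7 (-2.27 ± 0.46, adjusted p = 0.00516). Of 7 genes of sprouting vessels 3 rose at 12w, the Notch ligand Dll4 (1.17 ± 0.30, adjusted p = 0.0127), the chemokine receptor Cxcr4 (1.28 ± 0.42, adjusted p = 0.0395) and Pdgfb, the endothelial signal to pericytes (0.87 ± 0.16, adjusted p = 0.00129). On leaving out Tg7 12w replicate 2 the count was 1. At 2w edgeR and DESeq2 called 0 of the 7, and 2 had an unadjusted p under 0.05. With age 6 fell in Wt, led by Cxcr4 (-2.01 ± 0.42) and Pdgfb (-1.79 ± 0.16), and in Tg7 Nid2 (-1.36 ± 0.18), Angpt2 and Pdgfb (-1.10 ± 0.15) fell.

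Markers of other cells that the preparations could hold were measured beside the endothelial ones. Mural cell genes, of the pericytes and smooth muscle around vessels, summed to 83.2 to 159 CPM in Wt 12w and 204 to 213 CPM in Tg7 12w. Of 9 mural genes 6 rose at 12w and 8 fell with age in Wt, and at 2w edgeR and DESeq2 called 0, with 0 at an unadjusted p under 0.05. Stellate and fibroblast genes summed to 23.7 to 35.2 CPM in Wt 12w and 235 to 269.6 CPM in Tg7 12w, with 7 of 7 called higher, and at 2w 6 of 7 were called higher, a count that was 3 on leaving out Tg7 2w replicate 1, 1 on leaving out Wt 2w replicate 3, and 4 or more on leaving out any other library. Of 7 tested macrophage genes 0 rose and 1 fell at 12w, and the list summed to 79.6 to 89.2 CPM in Wt 12w and 64.6 to 72.1 CPM in Tg7 12w, with Cd163 at 0 in all but the Wt 12w group. Of 7 β-cell genes 6 fell in Tg7 at 2w and 5 at 12w. Of the 6 platelet genes Gp1ba was at 0 in every group, Gp9 was at 0 in Tg7 12w, and Pf4 averaged 0.336 ± 0.0478 CPM in its highest group, Tg7 2w. Itga2b averaged 3.03 to 4.15 CPM over the groups and did not pass. Itgb3, an integrin that endothelium makes too, rose at 2w, from 8.42 ± 1.17 to 21.8 ± 4.304 CPM (1.37 ± 0.20, adjusted p = 8.73e-04), and at 12w, from 5.04 ± 1.13 to 20.4 ± 1.69 CPM (2.03 ± 0.22, adjusted p = 2.03e-05). Ductal genes Spp1 and Muc1 (2 of 5 tested) and Schwann cell genes Ngfr and Sox10 (2 of 5) rose at 12w, and Fabp4, the 1 adipocyte gene tested, did too. With 1 library left out these counts at 12w were 1 to 3, 0 to 3 and 0 to 1, the Schwann count being 0 on leaving out Tg7 12w replicate 3. Adipoq, Cidec and Plin1, also on the adipocyte list, were too scarce to test, so Fabp4 alone does not show a change in adipocytes. Msln, the 1 mesothelial gene tested, fell with any 1 library left out, at 2w (-1.83 ± 0.19, adjusted p = 5.33e-05) and at 12w (-5.41 ± 0.25, adjusted p = 2.76e-08). Upk3b, Lrrn4 and Wt1, of the same list, were too scarce to test. Lrrn4 and Wt1 were at 0 in Wt 2w, and Upk3b and Wt1 were at 0 in Wt 12w. A change in mesothelial cells was not tested. Acinar genes summed to 9.67 to 11.8 CPM in Wt 2w and 21.6 to 28.2 CPM in Tg7 2w. Of 8 tested, 1 was called at 2w, Cpb1, which had 0 counts in Wt 2w, and 5 were higher with an unadjusted p under 0.05 (0 to 3 called with 1 library left out). Cpb1 was 2.77, 0.909 and 0 CPM in Tg7 2w replicates 1, 2 and 3. Without replicate 1 it did not pass (adjusted p = 0.129), and Cela1 was called in its place (adjusted p = 0.0303). Of 2 tested leukocyte genes edgeR and DESeq2 called 0 at 2w, and Ptprc had an unadjusted p under 0.05. Of 3 tested erythroid genes both tools called 0 at either age, and 2 were higher at 12w with an unadjusted p under 0.05. Of 6 genes of the other endocrine cells 1, Ppy, rose at 2w (0 or 1 with 1 library left out). The share of any of these cells in the difference of the endothelial markers was not tested.

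**Figure D4:**
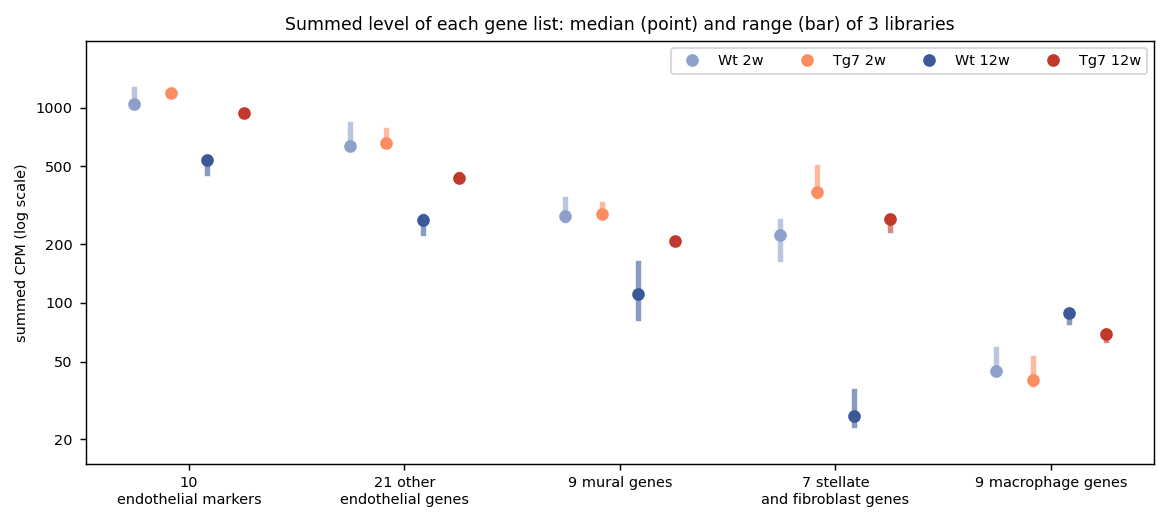
Summed CPM (y axis, log scale) of the endothelial markers and of 4 other gene lists by group; points are medians and bars the range of the 3 libraries. The endothelial, mural and stellate lists are lowest in Wt 12w, where the macrophage list is highest.

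The 10 markers varied together across the 12 libraries. Pearson's r of log2 CPM between pairs of markers ranged from 0.552 (Plvap and Emcn) to 0.975 (Pecam1 and Tie1), with a median of 0.872 over 45 pairs. After each group's mean was subtracted, r ranged from -0.737 (Tek and Eng) to 0.852 (Pecam1 and Tie1), with a median of 0.310. The 10 other genes most like the mean of the markers over the 12 libraries were Parvb (r = 0.989), Fbln2, Col6a2, Col3a1, Col5a1, 2610021K21Rik, Sparcl1, Foxs1, Col5a2 and Pde2a (r = 0.975). None of these 10 is on the endothelial lists, whereas 7 of the 50 most alike are. Col3a1 (r = 0.983) is on the stellate and fibroblast list. The median r was 0.796 for the 77 tested genes of the endothelial lists and 0.0006 for all genes outside the markers. After subtraction of group means the 10 were Serpinh1 (r = 0.983), Cdkn1a, Hsp90ab1, Cldn5, Npr1, Pdgfb, Dnaja4, Hexa, Gaa and Aga (r = 0.921). Libraries of a group share age and genotype, so these values describe the libraries and are given without a test.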

How the data were processed

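Islet RNA was sequenced as paired ends (HiSeq2500) from NEB Ultra II libraries. The authors trimmed reads with Trimmomatic, aligned them to mm9 with TopHat2 2.0.11 and deposited raw read counts per Ensembl gene made with featureCounts, without normalization. Whether strand was used in counting is not stated in these sources. The groups came from the genotype and age in the sample labels, and all 12 libraries were used (11610697 to 17515758 counts each, which limits the precision of scarce genes).

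Counts were fitted with edgeR 4.0.16 in R 4.3.3 (filterByExpr with a minimum count of 10 and a minimum total of 15, TMM factors, glmQLFit with 4 group means and no block, glmQLFTest). Genotype was compared at each age, age in each genotype, and the 2 genotype effects with each other, with Benjamini-Hochberg adjustment over 15961 tested genes and a threshold of 0.05. Every adjusted p comes from this test. The SE was computed as |log2 fold change|/√F, and the common biological coefficient of variation was 0.212. CPM used TMM-scaled library sizes, and log2 CPM a prior count of 2. RPKM divided CPM by the union of exons in the mm9 annotation, which matched 37205 of 37991 rows. The script was tested on simulated counts with known changes. The alternatives were DESeq2 1.42.0, other scalings and filters, fits on the libraries of a comparison alone, the replicate number as a block and each library left out in turn; those of the further pan-endothelial genes, and the counts of every list with a library left out, were added after the data were seen.

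The markers and all gene lists were chosen with earlier results of these data known. All 10 markers were named. From each endothelial or pathway list every called gene was named where a comparison called 4 or fewer, and otherwise the 2 called genes with the largest rises and the 2 with the largest falls. Cdh5, Vegfa, Angpt1, Angpt2, Acvrl1 and Erg were named whatever their result. Likeness was Pearson's r with the mean of the markers' z-scored log2 CPM. Promoter and miRNA sequences came from RefSeq (GRCm38.p6), and 3′ UTRs from the mm9 annotation. No positions were converted between the assemblies.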

Additional observations from a re-analysis of the deposited data

Results flagged for a closer look

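The genotype effect at 12w minus that at 2w passed the test of the difference for 2 markers. It was 0.91 ± 0.20 for Pecam1 and 0.83 ± 0.16 for Eng on the log2 scale (edgeR quasi-likelihood test, adjusted p = 0.0496 and 0.0198, n = 3 libraries in each of the 4 groups). For Pecam1 all 3 Tg7 12w libraries lay above the Wt 12w libraries while the 2w groups overlapped, and the same held for Eng. Both comparisons rest on Wt 12w libraries that differed from one another more than those of the other groups. The Pecam1 call was lost when any 1 library other than Wt 12w replicate 4 was left out. The Eng call was lost without any 1 Tg7 12w library or without replicate 1 or 3 of Wt 2w.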

How the results depend on the processing

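At 12w 8 to 10 markers were called higher in Tg7, and in Wt 9 or 10 were called lower with age, over every alternative and left-out library tried. At 2w 1 marker was called with library size alone, and 0 to 1 when a library was left out. For the difference between ages, where the main count was 2, TMM without the 20 most abundant genes called 1, DESeq2 called 4 and the replicate block called 5, and leaving out a library gave 0 to 6. For age in Tg7, where it was also 2, the libraries of that comparison alone called 6 and the replicate block called 4. Leaving out a library gave 2 to 4. Over all genes the replicate block called 502 for the difference and 3088 for age in Tg7, against 188 and 2079 in the main fit. For the difference DESeq2 called 566 of 23954 genes. The cause was not tested. Same-number Wt and Tg7 residuals had correlations of -0.167 to -0.0112, so the numbers were not taken as pairs; the block changed no other count of called markers by over 1.5 times.

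Values that changed sign were small and not called. With library size alone Kdr at 2w was 0.072, Flt1 at 2w was 0.11 and Plvap with age in Tg7 was -0.072, and with upper-quartile factors Flt1 at 2w was 0.000685. With a library left out Kdr at 2w ranged from -0.16 to 0.00342, Flt1 at 2w from -0.13 to 0.00879, Emcn at 2w from -0.0192 to 0.35, the difference between ages of Emcn from -0.0303 to 0.34, and Esam with age in Tg7 from -0.15 to 0.0424. Emcn at 12w was called only with library size alone (0.77), which moved the median of all tested genes by 0.43 at 12w, 0.19 at 2w and -0.35 with age in Wt. Of the 21 further pan-endothelial genes 20 were called at 12w with that scaling. Over all genes it called 5558 of 15961 at 12w, 5198 of them higher in Tg7. The main fit called 3772, with 1989 higher. Where a library is left out, the remaining pair shares the spread estimated over all groups.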
